A study of Rattus norvegicus with 4 samples.

Results

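Proteasome and ubiquitin conjugation genes were described in visceral fat of obese and control rats. Members were the genes whose single symbol in the platform's annotation starts with Psma, Psmb, Psmc, Psmd, Psme, Ube2, Uba or Usp, other than Psmb8, Psmb9 and Ube2c. Each gene was read from the probe set with the highest mean signal over the 4 arrays. The rule found 107 genes on 132 probe sets, and 105 of them, of 9011 tested genes in all, had a signal above the floor of 20.8 on at least 2 arrays. The floor is the 20th percentile of all signals, and signals under it were raised to it. The filter removed Ube2d2b and Ube2t, whose signals were at most 19.1 and 23.3, and 103 of the 105 kept genes exceeded the floor on every array.

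The tissue came from male Wistar rats of 130 days of age, and the labels give 2 control and 2 obese samples, with 1 array each. Strain, sex, age and tissue are the same in both groups. How the rats became obese, what they were fed and whether a sample held 1 animal or a pool is not given in the sources used here, and nothing says the samples are separate animals, so the p-values reflect array-to-array spread that could be technical. In whole tissue, fewer cells of a type and less RNA per cell cannot be told apart. Fat cell genes were present on every array, with signals of 2853 to 3680 for the fatty acid binding protein Fabp4 and of 275.3 to 391.3 for perilipin, Plin1.

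The proteasome is the protease that degrades most short-lived proteins of the cytosol and nucleus. Its core is a barrel of alpha subunits, which form the gate, and beta subunits, some of which carry the active sites. A cap with a ring of ATPases (Psmc) and a set of non-ATPase subunits (Psmd) binds ubiquitinated proteins, unfolds them and feeds them into the barrel, and alternative caps (Psme) open the gate without ATP. Ubiquitin reaches its targets through an activating enzyme, E1 (Uba), a conjugating enzyme, E2 (Ube2), and a ligase, E3, and ubiquitin-specific proteases (Usp) remove it again. In fat cells the transcription factor encoded by Nfe2l1 is known to maintain proteasome gene expression, and interferon is known to induce Psmb8, Psmb9, Psmb10, Psme1 and Psme2, which favour the production of peptides for MHC class I.

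By role the members were 14 core genes (7 alpha, 7 beta), 20 cap genes (5 ATPases, 12 non-ATPase genes and 3 alternative caps), 28 conjugation genes (4 E1, 24 E2) and 33 ubiquitin proteases. The remaining 10 carry a listed prefix but are not proteasome subunits, E1 or E2 enzymes or ubiquitin-specific proteases: Psmc3ip, Psme3ip1, Ubac1, Ubac2, Ubald1, Ubap1, Ubap2, Ubap2l, Ubash3b and Uspl1. Psmb6, Psmd14, Ube2d3 and Usp14 were not analysed here. The gene symbols of all 107 genes matched RefSeq through their Entrez identifiers, and 0 changed.

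Stretches upstream of the start of 6 members show the letters that the promoter search below counts, and they were chosen for holding those letters and for standing for the core and the interferon-inducible members. Each runs 5′ to 3′ over the 130 bases before the RefSeq start on assembly GRCr8, and capitals mark CCAAT, TGACNNNGC or a pair of GAAA repeats with 2 bases between them. They lie at chr1:177887858-177887987 on the minus strand for Psma1, chr2:198584375-198584504 on the plus strand for Psma5 and chr5:144254928-144255057 on the plus strand for Psmb2. Psmb5 is at chr15:32047380-32047509, Psmb10 at chr19:50743293-50743422 and Psme2 at chr15:33052752-33052881, all on the minus strand.
Psma1: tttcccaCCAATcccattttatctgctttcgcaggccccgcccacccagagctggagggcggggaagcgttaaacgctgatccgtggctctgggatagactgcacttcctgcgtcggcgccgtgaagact
Psma5: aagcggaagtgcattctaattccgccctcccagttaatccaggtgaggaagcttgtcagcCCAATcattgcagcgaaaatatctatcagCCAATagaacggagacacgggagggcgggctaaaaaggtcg
Psmb2: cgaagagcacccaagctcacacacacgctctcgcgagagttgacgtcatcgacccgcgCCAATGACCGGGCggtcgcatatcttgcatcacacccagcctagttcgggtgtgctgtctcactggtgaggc
Psmb5: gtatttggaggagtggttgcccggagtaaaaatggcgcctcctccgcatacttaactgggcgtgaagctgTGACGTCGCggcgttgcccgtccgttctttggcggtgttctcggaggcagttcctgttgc
Psmb10: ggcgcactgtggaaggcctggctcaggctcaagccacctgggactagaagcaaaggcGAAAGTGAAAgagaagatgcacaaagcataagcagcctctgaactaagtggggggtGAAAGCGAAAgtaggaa
Psme2: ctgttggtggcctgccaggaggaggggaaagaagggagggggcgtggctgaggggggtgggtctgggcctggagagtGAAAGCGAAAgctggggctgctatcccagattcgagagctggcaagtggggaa

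The comparison asked how the genes of protein degradation differed between obese and control fat. None of the 105 members passed limma's moderated test at an adjusted p of 0.05, where 0% of the 9011 tested genes did, and the members' adjusted p lay between 0.467 and 0.998. An unadjusted p under 0.05 was found for 3 members, Ube2o, Psma1 and Usp21, which is 2.86% of them against 8.59% of all tested genes. The log2 differences, obese minus control, ran from -1.03 to 0.66, and 82 of the 105 were smaller than 0.2 in size. Both obese signals exceeded both control signals for 25 members, 23.8%, against 16.4% of all tested genes, and below both for 17, 16.2%, against 24%. Of the 34 core and cap genes, 12 were separated upwards and 0 downwards, a 0 that became 1 with cyclic loess and 2 with quantile normalization, while of the 33 ubiquitin proteases 4 were separated upwards and 11 downwards.

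**Figure D1:**
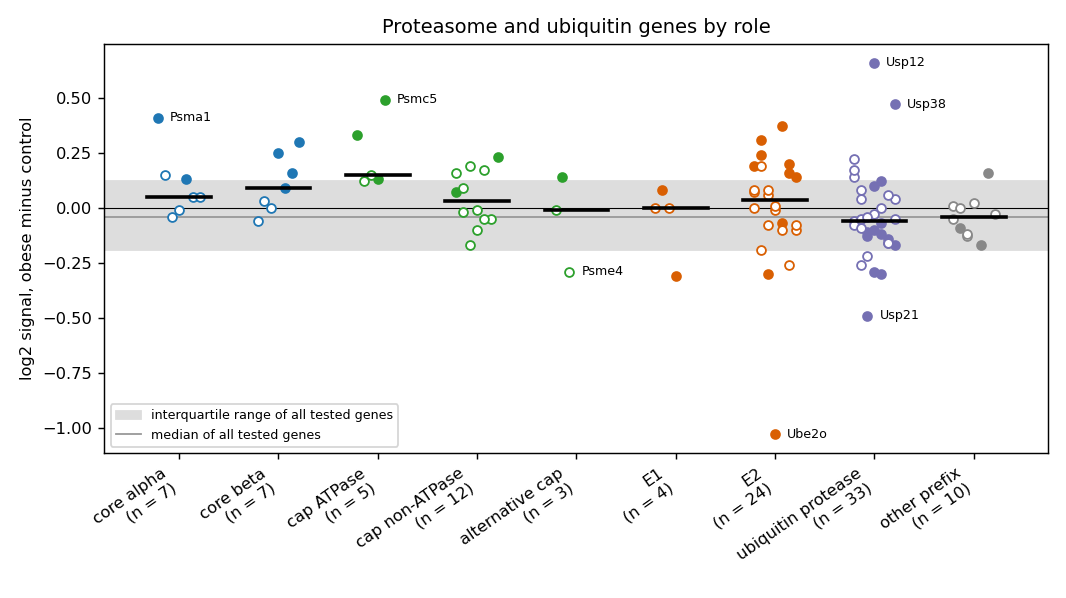
Log2 difference of signal, obese minus control, for each of the 105 members by role; filled points are genes whose groups did not overlap, open points overlap, black bars are medians, the grey band is the interquartile range of all 9011 tested genes and the grey line their median. Most points lie within the band, the cap ATPases all lie above 0, and Ube2o at -1.03 stands lowest.

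**Figure D2:**
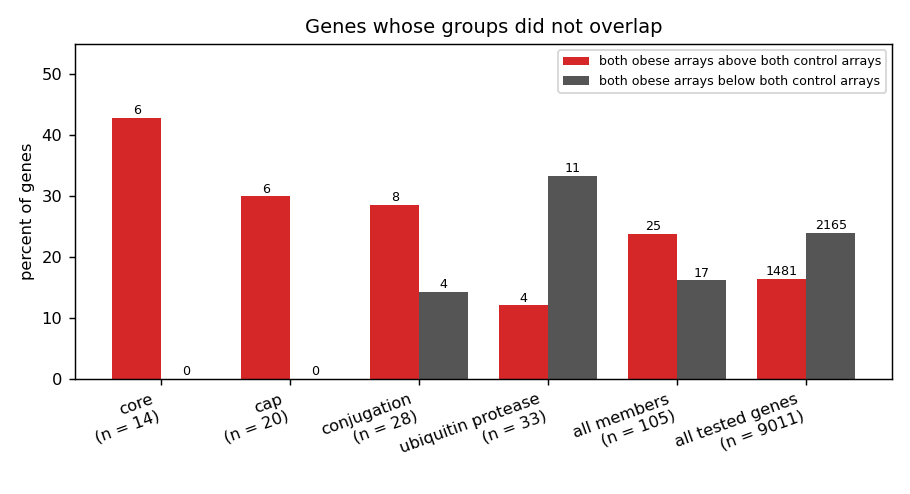
Percent of genes with both obese arrays above both control arrays (red) or below them (grey), for 4 role groups, all members and all tested genes; numbers on the bars are counts of genes. Core and cap genes have 0 genes below at this scaling (1 with cyclic loess, 2 with quantile normalization), and ubiquitin proteases have 11 of 33.

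Core genes were slightly higher in obese fat, with 10 of 14 above control, against 43.4% of all tested genes, and a median log2 difference of 0.07 (interquartile range 0.01 to 0.16), beside -0.04 over all tested genes. Their probe sets are bright, with a median rank at the 88.3rd percentile of signal, and of the brightest 25% of tested genes 54.2% were above control, with a median of 0.03. Both obese arrays exceeded both control arrays for 6 of the 14, Psma1, Psma5, Psmb3, Psmb4, Psmb5 and Psmb7. The median stayed above 0 with each of 3 other scalings and without any 1 array, and was 0.13 without obese replicate 1 and 0.15 with median centring.

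Psma1, an alpha subunit of the gate ring, had the largest difference of the core. Its signal was 317.6 and 282.6 in control replicates 1 and 2, and 389.8 and 407.9 in obese replicates 1 and 2. The lowest obese array lay well above the highest control array, and the log2 difference was 0.41 ± 0.13 (SE; limma adjusted p = 0.522), or 1.33-fold. The beta subunit Psmb7, which carries the trypsin-like site, gave 551.2 and 602.0 in control and 633.6 and 798.9 in obese fat, a difference of 0.30 ± 0.16 (limma adjusted p = 0.671). Most of that difference came from obese replicate 2, and it was 0.14 without it. Psmb5, which carries the chymotrypsin-like site, gave 654.8 and 700.2 in control and 749.3 and 761.0 in obese fat. The 2 obese arrays of Psmb5 were close to each other, and the difference was 0.16 ± 0.12 (limma adjusted p = 0.767).

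Psmb3, a beta subunit without a catalytic site, was singled out after its values were seen, with 411.3 and 468.6 in control and 494.4 and 549.4 in obese fat. It differed by 0.25 ± 0.14, less than 2 standard errors. Psmb4 and Psma5, chosen in the same way, differed by 0.09 and 0.13. Psma6 had the highest mean signal of the alpha subunits, and its groups overlapped, with 898.6 and 835.2 in control and 917.7 and 877.9 in obese fat. Psmb1 also overlapped, at 822.3 and 747.1 in control and 768.6 and 735.6 in obese fat, a difference of -0.06 ± 0.13. Psma3 gave -0.04 ± 0.14.

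**Figure D3:**
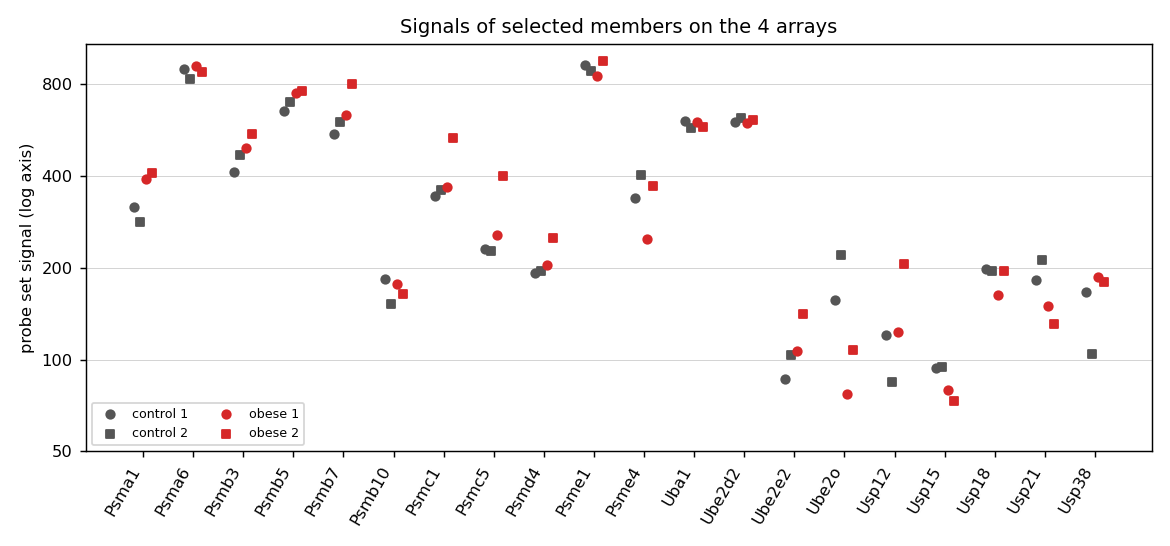
Probe set signals (log axis) of 20 members on the 4 arrays, control in grey and obese in red, circles for replicate 1 and squares for replicate 2. Signals of different genes come from different probes and are not compared as levels; Psma1 is separated upwards and Ube2o downwards, while Uba1 and Ube2d2 overlap.

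Cap genes were higher on average through 1 obese array. Of the 20, 12 were above control and the median difference was 0.11 (interquartile range -0.03 to 0.16). Obese replicate 2 was the highest of the 4 arrays for 13 of the 20 cap genes, 65%, against 23.4% of all tested genes. The cap probe sets are bright, with a median rank at the 82.7th percentile of signal. Of the brightest 25% of tested genes, 40.7% were highest on obese replicate 2. Measured against the control mean, the cap genes had a median of 0.21 on obese replicate 2 and of -0.01 on obese replicate 1. The cap median was thus -0.01 when obese replicate 2 was left out, and its sign rested on that array. For the core genes the same medians were 0.13 on obese replicate 2 and 0.06 on obese replicate 1.

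**Figure D4:**
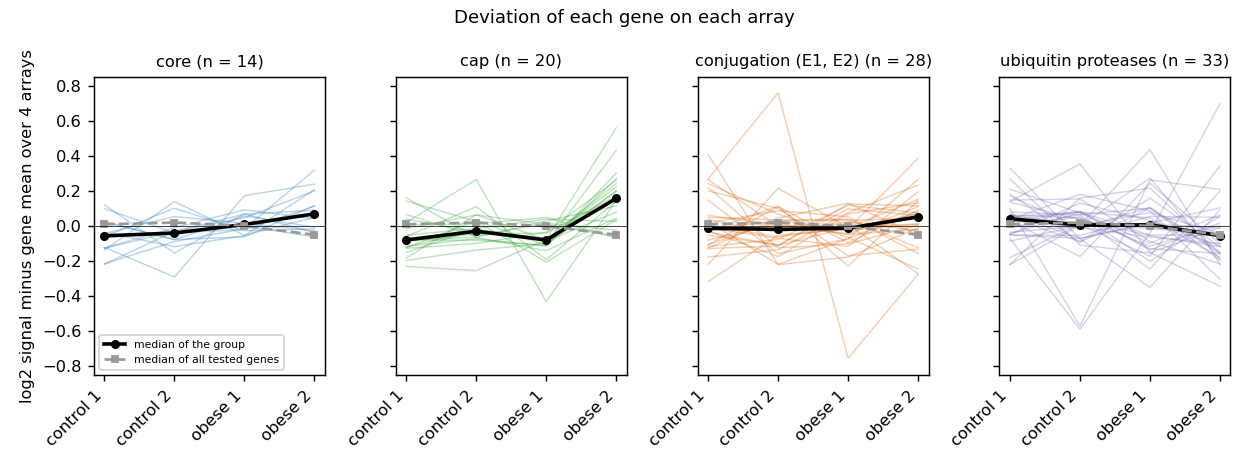
Log2 signal of each gene minus its own mean over the 4 arrays, for core, cap, conjugation and ubiquitin protease genes; thin lines are genes, the black line is the group's median and the dashed grey line the median of all tested genes. The cap median is -0.08 on control replicate 1 and obese replicate 1 and 0.16 on obese replicate 2, where the median of all tested genes is -0.05.

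The ATPases of the cap, which unfold substrates, showed this pattern most. All 5 measured ATPase genes were above control, by 0.12 to 0.49, and all 5 were highest on obese replicate 2. Psmc5 had a signal of 230.4 and 226.5 in control fat and of 256.5 and 398.8 in obese fat. Its 2 control arrays nearly coincided, the obese arrays lay above them but far apart, and the difference was 0.49 ± 0.22 (limma adjusted p = 0.630). It was 0.17 without obese replicate 2, and 0.80 with obese replicate 1 left out. Psmc1, singled out after its values were seen, gave 345.1 and 359.4 in control and 369.1 and 533.5 in obese fat, and its difference of 0.33 ± 0.20 was 0.07 without obese replicate 2. Psmc2 overlapped, with 460.3 and 546.2 in control and 494.3 and 599.0 in obese fat.

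The non-ATPase cap genes were balanced, with 6 of 12 above control and a median of 0.03. Psmd4, a receptor for ubiquitin chains, gave 191.9 and 195.6 in control and 204.5 and 251.3 in obese fat, a difference of 0.23 ± 0.15 (limma adjusted p = 0.741). Its groups did not overlap, but it was 0.08 without obese replicate 2. Psmd5, Psmd9 and Psmd10, which are known to help assemble the ATPase ring and are not subunits of the finished cap, differed by 0.07, -0.05 and 0.09. They are counted with the cap genes by their symbols, and Psmd5 is among the 6 cap genes separated upwards. Psmd11, a scaffold subunit, gave 536.3 and 495.1 in control and 421.4 and 498.6 in obese fat, a difference of -0.17 ± 0.14. A second probe set of Psmd11 pointed the other way, at 0.22 with separated groups, so no direction can be given for this gene.

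The alternative caps differed among themselves. Psme1 and Psme2 encode the alpha and beta chains of the interferon-inducible activator. Psme1 overlapped, at 926.8 and 881.6 in control and 849.4 and 953.3 in obese fat (difference -0.01 ± 0.13). Psme2 was separated upwards by a small step, from 361.2 and 365.0 to 389.5 and 413.1, a difference of 0.14 ± 0.12 (limma adjusted p = 0.789). Psme4, an activator known for the turnover of acetylated histones, gave 339.7 and 402.6 in control and 248.4 and 370.4 in obese fat. On this probe set obese replicate 1 alone was low, and the difference of -0.29 ± 0.22 was 0.002 without that array. The 2 other probe sets of Psme4 gave -0.18 each, and the dimmer of them was separated downwards, at 116.2 and 132.9 in control and 110.9 and 108.0 in obese fat.

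The catalytic subunits of the immune core were measured beside the members. Psmb10, a catalytic beta subunit that interferon induces, overlapped at 183.6 and 151.7 in control and 177.2 and 164.5 in obese fat, a difference of 0.03 ± 0.16. Psmb8, which the member rule leaves out, gave 278.6 and 283.4 in control and 254.1 and 237.9 in obese fat, a difference of -0.19 ± 0.13 (limma adjusted p = 0.732). Psmb9, left out by the rule too, gave 317.6 and 263.8 in control and 307.6 and 206.7 in obese fat, overlapping groups with a difference of -0.20 ± 0.22. Of 10 listed genes of the immunoproteasome and of peptide loading, all measured, 4 were higher and 6 lower, with 1 separated upwards (Psme2), 10%, and 2 downwards, Psmb8 and Tapbp, 20%, near the 16.4% and 24% of all tested genes. Tapbp, tapasin, which loads peptides onto MHC class I, differed by -0.20.

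Among the E1 enzymes, Uba1, which activates most ubiquitin, was nearly the same in both groups. It gave 605.5 and 575.3 in control and 600.1 and 579.4 in obese fat, and the difference was within 0.01 of 0 with an SE of 0.12. Uba3, part of the enzyme that activates NEDD8, and Uba2, its counterpart for SUMO, differed by less than 1 standard error, Uba2 by 0.08 ± 0.12. Uba6, a second E1 for ubiquitin that also activates the modifier encoded by Ubd, gave 117.9 and 104.5 in control and 95.3 and 84.1 in obese fat. Both obese arrays of Uba6 were below both control arrays, with a difference of -0.31 ± 0.18 (limma adjusted p = 0.694).

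The E2 enzymes held the only member with separated groups at least 2-fold apart, Ube2o, against 0.744% of all tested genes lower by that measure and 0.411% higher. Ube2o encodes a large enzyme that works as E2 and E3 in 1 chain and is known from the remodelling of proteins in immature red blood cells. Its signal was 156.6 and 220.2 in control replicates 1 and 2, and 77 and 107.4 in obese replicates 1 and 2. The highest obese array was well below the lowest control array. The log2 difference was -1.03 ± 0.25 (limma adjusted p = 0.467), so control fat was 2.04-fold higher, and without any 1 array it lay between -1.28 and -0.78. It rests on 1 probe set. Of the blood markers measured, the haem synthesis gene Alas2, which marks immature red cells, gave 638.3 and 908.5 in control and 544.2 and 521.0 in obese fat, a difference of -0.52 ± 0.19 (limma adjusted p = 0.574). The haemoglobin gene Hbb overlapped, at 3803 and 4675 in control and 3920 and 5023 in obese fat. The part of blood cells in the Ube2o value was not tested.

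Of the 24 E2 genes, 14 were above control and 10 below, with a median of 0.03, and 7 were separated upwards and 3 downwards (Ube2d1, Ube2o and Ube2q1). These are 29.2% and 12.5%, against 16.4% and 24% of all tested genes. The E2 probe sets have a median rank at the 75.3rd percentile of signal. Of the brightest 25% of tested genes 24.8% were separated upwards and 19.9% downwards, and of the next 25% in brightness 16.1% and 26.1%. Ube2d2, an E2 that serves many ligases, had 600.1 and 619.3 in control and 597.2 and 611.2 in obese fat, and its 3 probe sets differed by -0.01 to -0.04. Ube2e2 had the largest positive difference, 0.37 ± 0.21, from 86.5 and 103.9 in control to 106.6 and 140.9 in obese fat, and was singled out after its values were seen. Ube2v2, a partner without a catalytic site for the chain-building enzyme of Ube2n, was named in the same way, with 94.9 and 97.7 in control and 113.2 and 126.2 in obese fat, a difference of 0.31 ± 0.16 (limma adjusted p = 0.672). Ube2n itself gave 0.08 ± 0.15 with the chosen probe set and -0.27 with the other.

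E2 enzymes for other modifiers had small differences. Ube2m, the E2 for NEDD8, gave 308.7 and 260.9 in control and 288.8 and 365.1 in obese fat, a difference of 0.19 ± 0.17. Ube2l6, the E2 for the interferon-induced modifier ISG15, was separated upwards, from 107.6 and 110.6 to 126.7 and 122.9, by 0.19 ± 0.15 (limma adjusted p = 0.773). Usp18, the protease that removes ISG15, lay on the other side, with 197.7 and 195.5 in control and 162.7 and 194.6 in obese fat. The upper obese value of Usp18 was less than 1 unit under the lower control value, and the difference was -0.14 ± 0.15.

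Ube2b, an E2 of DNA repair, shows how far a value can depend on the probe set. The chosen probe set gave 451.8 and 456.8 in control and 539.0 and 535.0 in obese fat, a difference of 0.24 ± 0.12 with tight replicates (limma adjusted p = 0.650). A second bright probe set gave 0.01. The third gave -0.42, but it was dim, at 30.9 and 35.9 in control and 29.6 and 19.9 in obese fat, near the floor. Of 17 members with several tested probe sets, all probe sets had the same sign for 9, and for 3 (Ube2b, Ube2k and Usp9x) separated groups pointed both ways. Ube2k gave 0.20 and -0.13, and Usp9x gave 0.12, 0.12 and -0.08.

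Of the ubiquitin proteases 21 of 33 were below control with a median of -0.06, close to the 5103 of 9011 and -0.04 of all tested genes, and the median turned to 0.02 when each array was centred on its median. The 11 separated downwards are 33.3%, against 24% of all tested genes, and include Usp42, which passed the filter through its control arrays alone. Among genes above the floor on every array they were 10 of 31, 32.3% against 24.1%, and with median centring 5 of 33, 15.2% against 16.5%. Usp21, a protease acting on histones and signalling proteins, had 182.8 and 212.1 in control and 149.4 and 130.8 in obese fat. Its groups were separated, and the difference was -0.49 ± 0.16 (limma adjusted p = 0.522). Usp8, which acts on receptors at endosomes, and Usp15 were singled out after their values were seen. Usp8 went from 245.7 and 223.8 in control to 194.2 and 190.5 in obese fat (-0.29 ± 0.13), and Usp15 from 93.8 and 94.2 to 79.7 and 72.9 (-0.30 ± 0.17).

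Usp12 was the highest member of all by difference, at 0.66 ± 0.30 (limma adjusted p = 0.629). Its signals were 120.5 and 84.1 in control and 123.2 and 205.3 in obese fat, so that the lower obese array barely exceeded the upper control array. The difference was 0.29 without obese replicate 2, and 1.03 with obese replicate 1 left out. Usp38, singled out after its values were seen, gave 166.0 and 104.2 in control and 185.9 and 179.1 in obese fat, and its difference of 0.47 ± 0.24 was 0.14 without control replicate 2. Usp7, known for stabilizing Mdm2, and Usp34, which had the highest mean signal of the group, overlapped, with differences of -0.04 ± 0.15 and -0.03 ± 0.13. Usp2, a protease under clock control, was dim, at 19.9, 24.3, 32.8 and 19 in order of control and obese replicates, so 2 arrays lay under the floor. Usp42 gave 21.9 and 22.8 in control and 15.6 and 13.1 in obese fat.

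Of 91 tested genes on the pathway lists, 3 of them members, 0 passed limma's test, and 5, Ufm1, Cbl, Cblb, Arih1 and Uchl1, had an unadjusted p under 0.05, which is 5.49% against 8.59% of all tested genes. Of the 25 listed assembly factors and regulators 23 were measured, 12 higher and 11 lower, with a median of 0.01. Nfe2l1, the regulator named above, overlapped at 252.2 and 200.6 in control and 211.1 and 239.5 in obese fat. The core assembly chaperones Psmg1 and Psmg2, which work as a pair, differed by 0.14 ± 0.13 and -0.22 ± 0.13 with separated groups in opposite directions. Of 9 subunits of the signalosome, a complex related to the proteasome cap, 8 were measured and 7 were higher, with a median of 0.08. Of all tested genes 43.4% were higher. Of the brightest 25%, where most signalosome probe sets lie, 54.2% were higher, with a median of 0.03. Cops6 led the signalosome genes at 0.29 ± 0.14 (limma adjusted p = 0.654), and Gps1 gave -0.07.

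Of 46 listed E3 ligases 36 were tested, 13 higher and 23 lower, with a median of -0.05, and 9 were separated downwards and 3 upwards. These are 25% and 8.33%, against 24% and 16.4% of all tested genes, whose median was -0.04. The muscle atrophy ligases Fbxo32 and Trim63 stayed under the floor on every array. Cblb, a ligase that restrains immune receptors, gave 285.2 and 249.4 in control and 189.1 and 183.7 in obese fat, a difference of -0.52 ± 0.14 (limma adjusted p = 0.481). Cul4a, a cullin scaffold, gave 99.4 and 142.5 in control and 154.0 and 176.0 in obese fat, a difference of 0.47 ± 0.22. Of 7 measured modifiers, Ufm1 led at 0.36 ± 0.14 and Atg12 was lowest at -0.16. Of 7 other deubiquitinases, 4 were separated downwards, among them Otud5 at -0.34 ± 0.14, and 1 upwards. The shares are 57.1% and 14.3%, against 24% and 16.4% of all tested genes. Uchl1, a neuronal hydrolase, had 24.8 and 6.0 in control and 146.1 and 35.2 in obese fat, so the size of its difference depends on the floor and on obese replicate 1: it was 1.66 ± 0.63, and 0.63 without that array.

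The listed macrophage markers were lower in obese fat, while other measures of the arrays and of the tissue differed between the obese arrays. All 8 measured macrophage markers were lower in obese fat, 6 of them separated, and their summed signal was 7285 to 9275 in control and 4849 to 4969 in obese samples. All 6 tested lymphocyte markers were lower too, and Cd3e and Cd79b failed the filter. Beside these counts, 5103 of 9011 tested genes were lower and 24% were separated downwards. The summed signal of 7 adipocyte markers was 10570 to 10586 in control fat, 10495 on obese replicate 1 and 12751 on obese replicate 2, the array on which the cap genes were highest. Obese replicate 1 was apart in some other markers. The summed signal of 4 muscle markers was 2042 on it and 937 to 1026 on the other arrays. That of 3 mesothelium markers was 680.9 and 796.9 in control, 1249 on obese replicate 1 and 299.2 on obese replicate 2. Both obese arrays thus lay outside the control range for the mesothelium markers. The pancreatic gene Prss1 gave 361.5 on obese replicate 1 and 16.4 to 27.4 elsewhere. Another pancreatic gene, Cpa1, was highest on control replicate 2, with 148.1 and 622.5 in control and 197.0 and 73.4 in obese fat. Obese replicate 2 had the lowest median signal, 75 against 82.2 to 83.1. The part of these differences in the values of the members was not tested.

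The differences also varied with brightness. With the tested genes sorted by mean signal, a grouping chosen after the values were seen, the median difference was -0.07 in the dimmest 25% and 0.03 in the brightest 25%, where 24.8% of genes were separated upwards and 19.9% downwards. Obese replicate 2 was the highest array for 40.7% of the brightest genes and 14.8% of the dimmest. The probe sets of core and cap genes had a median rank at the 84th percentile of signal, and those of ubiquitin proteases at the 55.7th. Read against the brightest genes, 35.3% of core and cap genes were separated upwards beside 24.8%, and 0% downwards beside 19.9%. For the next 25% of genes in brightness, where the median of the ubiquitin proteases lies, 26.1% were separated downwards and 16.1% upwards, beside 33.3% and 12.1% of the proteases.

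The promoters of the groups differed in the letters they hold. The window ran from 250 bases before to 50 after the 5′-most RefSeq start, both strands were searched, and 93 of the 105 members had one. The CCAAT box, which NF-Y binds, was in 9 of 13 core promoters, 69.2%, and in 36.8% of cap, 24% of conjugation and 25.9% of ubiquitin protease promoters, against 37.8% of all 27457 promoters and 37.7% of the 7480 found for tested genes. TGACNNNGC, the core of the antioxidant response element through which the Nfe2l1 product acts, was in 23.1% of core, 21.1% of cap, 32% of conjugation and 22.2% of ubiquitin protease promoters, against 12.2% of all and 15.0% of those of tested genes. In the Psmb2 stretch printed above, TGACNNNGC shares its first base with the end of a CCAAT box. Promoters differed in base content, with a median of 56% G and C for core, 52.3% for all promoters and 61% for those of tested genes.

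GAAA, any 2 bases and GAAA again, the core of the element bound by interferon regulatory factors, was in 5 of the 93 member promoters, 5.38%, those of Psma4, Psmb3, Psmb10, Psmd7 and Psme2, against 3.77% of all promoters and 2.81% of those of tested genes. Psmb10 held 2 copies, starting 73 and 17 bases before the start, and Psme2 held 1, starting 53 bases before it. These 5 had no common pattern: Psme2 and Psmb3 were separated upwards, while Psmb10, Psma4 and Psmd7 overlapped, at 0.03, -0.01 and 0.19. Of the core genes with a CCAAT box, Psma1, Psma5, Psmb3 and Psmb7 were separated upwards. The others with a CCAAT box, Psma2, Psma3, Psma4, Psmb1 and Psmb2, overlapped. Among core promoters without a CCAAT box, those of Psmb4 and Psmb5 belong to genes separated upwards, and those of Psma6 and Psmb10 to genes that overlapped. TTCNNNGAA was in 3.23%, the E-box CACGTG in 9.68% and TATAAA in 8.60% of member promoters, against 8.64%, 6.64% and 14.3% of all promoters and 6.60%, 9.28% and 7.67% of those of tested genes. These matches describe the letters of the windows alone.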

How the data were processed

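The deposited values are linear signal intensities of probe sets, scaled before deposit, as the values show, to a trimmed mean (2% at each end) of 150.026 to 150.03 on each array. No scanner, software or background correction is named in the sources, and no detection call was used. Of the 15866 probe sets left after removing 57 controls, 12783 have 1 symbol in the platform annotation, 312 several and 2771 none, and genes were read only from the first kind. Then signals were raised to the floor of 20.8 and log2 was taken. The 12929 probe sets above it on at least 2 arrays were fitted with limma 3.58.1 in R 4.3.3 (lmFit, eBayes with trend), as obese minus control with two-sided p-values, adjusted over all of them by Benjamini-Hochberg. Errors are moderated standard errors. Exact permutation of 2 against 2 arrays cannot give a p under 0.333, so none was run. In data simulated for this comparison with 12929 probe sets, the test found 94.8% of 4-fold and 45.3% of 2-fold changes. Each simulated draw held 6.9 false positives on average. Because these rates were not split by signal, they do not give the power for dimmer members or for a single gene such as Ube2o. Members and lists were chosen with earlier results of these data known. Genes were named by the extremes and highest signal of each role, by a fixed set, by 2-fold separation, by disagreeing probe sets and by the extremes of each list; all other genes, among them Psmd5, Psmd9, Psmd10, Psmb9, Tapbp, Usp42, Ube2d1, Ube2q1, Cbl, Arih1 and the cell markers, were chosen after their values were seen.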

Additional observations from a re-analysis of the deposited data

How the results depend on the processing

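None of the members passed the limma test under any of 15 alternatives. Of all probe sets, 0 passed in the main setting, 774 of 9011 genes had an unadjusted p under 0.05, and 1 probe set passed with the floor at the 10th percentile, 5 with it at the 40th, 3 with a pseudocount of 16, 6 without the filter, 1 without the variance trend and 1 with a mean over probe sets. The labels give both groups replicates 1 and 2. A fit with this replicate block passed 0 probe sets and 0 members, and same-numbered arrays deviated with a correlation of 0.048, so the numbers were not taken as pairs.

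Median centring moved the medians to 0.153 for core, 0.086 for conjugation and 0.023 for ubiquitin protease genes, counted 9 members separated downwards in place of 17, and put 74 of 105 members above control in place of 53. It shifted the median of all probe sets by 0.08. The ubiquitin protease median was -0.019 with cyclic loess and -0.009 with quantile normalization, and was -0.056 in the main setting. Without 1 array the medians ran from 0.055 to 0.127 for core, -0.01 to 0.211 for cap, -0.005 to 0.084 for conjugation and -0.088 to -0.02 for ubiquitin protease genes. Members separated upwards then numbered 37 to 45 and downwards 32 to 34, since 3 arrays separate more easily. With a mean over probe sets Psmd11 turned to 0.024 and Ube2b to -0.059, and Psme4 ran from -0.574 to 0.002 without 1 array. The causes were not tested. The number of arrays, 2 per group, and the missing background measure limit every value.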
